A study of Mus musculus with 7 samples.

Results

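The genes of the voltage-gated sodium channels, the voltage-gated calcium channels, the HCN channels and the TRP channels were followed through 7 mouse RNA-seq libraries of neural crest-derived cells and their neighbours from small bowel and fat. Members were the genes whose mouse symbol names a sodium channel alpha or beta subunit (Scn), a calcium channel alpha1, alpha2delta, beta or gamma subunit (Cacn), an HCN channel, or a TRP channel of the A, C, M or V kind. 66 of the 27179 Entrez genes in the deposited table met this rule, out of 25275 with a symbol.

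Sodium channel alpha subunits form the pore that carries the upstroke of the action potential, and beta subunits set how the pore opens and where it sits. Calcium channel alpha1 subunits form the pore that couples depolarisation to calcium entry, transmitter release and contraction, while alpha2delta and beta subunits bring it to the membrane. HCN channels open on hyperpolarisation and help to pace rhythmic cells, and TRP channels are cation channels that respond to heat, stretch, irritants, lipids or emptied calcium stores. In the gut wall, members of all 4 groups are known from enteric neurons, enteric glia, smooth muscle and the interstitial cells of Cajal, which pace the muscle.

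All cells came from Wnt1-tdT mice, in which Cre driven by the Wnt1 promoter switches on a tdTomato reporter in the R26R locus, so that cells of the neural crest lineage are red. The adipose neurospheres came from digested posterior subcutaneous fat that was cultured for 10 days as mixed spheroids, sorted for tdTomato and cultured for 10 further days. The adipose primary cells were sorted for tdTomato straight from digested fat. The bowel M2 neurospheres were made like the adipose ones, from the muscle and myenteric plexus layer of the small bowel, whereas the bowel M1 neurospheres were sorted before culture and then grown for 10 days. The tdTomato-positive and tdTomato-negative spheroid cells were sorted from mixed bowel spheroids after 10 days, and the bowel primary cells were sorted for tdTomato straight from digested bowel. Culture medium held basic fibroblast growth factor and epidermal growth factor, each at 20 ng/mL, and heparin. Each group is 1 library of about 50000 cells pooled from 3 mice of 1 month (2 female and 1 male), so differences between libraries have no replicate check and no p-value is given.

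Libraries held 51885106 to 65301500 reads assigned to genes, and 12401 to 14690 genes reached 1 CPM (counts per 1000000 assigned reads). In that range 3 reads, the limit that a count of 0 allows, correspond to 0.0459 to 0.0578 CPM. The label of the sort was checked against the crest transcription factor gene Sox10, which stood at 98.0 to 900 CPM in the 6 tdTomato-positive libraries and at 5.23 CPM in tdTomato-negative spheroid cells. All 10 glial markers reached 1 CPM in every tdTomato-positive library, and 8 of them did so in tdTomato-negative cells too. Their summed level was 1348 to 6768 CPM in the tdTomato-positive libraries, against 25.6 CPM in tdTomato-negative cells. Other markers moved with the libraries too. Bowel primary cells held 26851 CPM of 8 smooth muscle markers (69.7 to 462 CPM in the other libraries), 1594 CPM of 6 mesothelial markers (1.01 to 86.7 CPM) and 9.09% of reads from pancreatic acinar genes (at most 0.0248%). Adipose primary cells held 5725 CPM of 8 markers of mature dendritic cells (182 to 325 CPM elsewhere), 5086 CPM of 8 myelin markers (116 to 868 CPM) and 328 CPM of 8 lymphocyte markers (0.199 to 22.8 CPM). In tdTomato-negative spheroid cells, 8 fibroblast markers summed to 47311 CPM and 5 markers of the interstitial cells of Cajal to 4297 CPM, against 1051 to 12076 CPM and 98.2 to 478 CPM in the other libraries. Thbs4 alone made up most of that Cajal cell sum, at 3939 CPM. Kit, Ano1, Etv1 and Gja1 stood at 21.7, 56.6, 83.0 and 197 CPM, against 19.6, 71.9, 139 and 126 CPM in bowel primary cells. Macrophage markers summed to 4215 CPM in bowel primary cells, 1667 CPM in adipose primary cells and 1336 CPM in M1 neurospheres, against 27.8 to 111 CPM in the rest. Lyz2 made up most of the M1 sum, at 1213 CPM. Endothelial markers summed to 1.06 to 202 CPM, mast cell markers to 0.130 to 41.6 CPM, melanocyte markers to 6.26 to 14.0 CPM and skeletal muscle markers to 2.57 to 114 CPM. In bulk libraries like these, fewer cells of a type and less RNA per cell cannot be told apart.

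The stretch of DNA just before the start of 4 members is printed here, because they reached the highest levels of their families while differing in how evenly they were spread over the libraries. Trpm7 stood above 48 CPM in all 7 libraries, whereas Scn7a, Cacnb3 and Cacna1b were concentrated in 1 or 2 of them. Each line gives the 250 bases upstream of a RefSeq gene start on GRCm38.p6, 5′ to 3′ on the gene's strand, with the dinucleotide CG in capitals. The windows are chr2:126876262-126876511 (minus strand) for Trpm7, chr2:66784911-66785160 (minus strand) for Scn7a, chr15:98632078-98632327 and chr15:98634517-98634766 (plus strand) for the starts 1 and 2 of Cacnb3, and chr2:24763153-24763402 (minus strand) for Cacna1b. A stretch just after the start was found in a GENCODE M21 transcript for Scn7a, Cacna1b and Cacnb3 start 2. It was not found for Trpm7 and Cacnb3 start 1. Both Cacnb3 windows lie inside the span of the gene, so its outermost start is not shown.
Trpm7: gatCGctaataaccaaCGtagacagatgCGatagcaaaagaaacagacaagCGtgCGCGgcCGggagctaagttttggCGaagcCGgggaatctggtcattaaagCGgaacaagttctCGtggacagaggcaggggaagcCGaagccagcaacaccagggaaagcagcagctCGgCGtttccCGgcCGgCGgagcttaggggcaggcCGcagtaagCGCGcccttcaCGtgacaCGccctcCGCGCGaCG
Scn7a: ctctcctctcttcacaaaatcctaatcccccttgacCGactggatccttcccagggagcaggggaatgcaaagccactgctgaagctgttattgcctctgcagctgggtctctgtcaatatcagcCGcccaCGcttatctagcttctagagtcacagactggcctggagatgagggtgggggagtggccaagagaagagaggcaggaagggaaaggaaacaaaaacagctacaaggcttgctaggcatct
Cacnb3 start 1: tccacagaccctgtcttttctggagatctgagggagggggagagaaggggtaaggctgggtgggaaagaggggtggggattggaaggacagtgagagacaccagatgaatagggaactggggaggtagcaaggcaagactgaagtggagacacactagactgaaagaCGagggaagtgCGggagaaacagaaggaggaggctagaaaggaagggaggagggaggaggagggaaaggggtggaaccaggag
Cacnb3 start 2: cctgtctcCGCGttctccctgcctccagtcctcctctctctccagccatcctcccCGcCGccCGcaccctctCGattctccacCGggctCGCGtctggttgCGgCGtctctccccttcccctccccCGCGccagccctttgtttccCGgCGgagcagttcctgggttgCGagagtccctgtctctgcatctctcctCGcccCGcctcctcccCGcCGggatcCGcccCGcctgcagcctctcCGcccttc
Cacna1b: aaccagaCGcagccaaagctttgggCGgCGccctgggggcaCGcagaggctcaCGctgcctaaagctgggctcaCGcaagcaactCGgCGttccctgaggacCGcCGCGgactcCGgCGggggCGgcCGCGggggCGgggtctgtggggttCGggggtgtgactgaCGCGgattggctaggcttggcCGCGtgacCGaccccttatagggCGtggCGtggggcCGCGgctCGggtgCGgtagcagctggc
The Trpm7 window holds 26 CG, and 9.59% of 32851 RefSeq windows hold as many or more. The Scn7a window holds 3 CG, a count reached by 71% of windows. For Cacnb3, start 1 has 2 CG (81.2% of windows have as many or more) and start 2 has 23 CG (13.3%), while the Cacna1b window holds 29 CG (6.78%). CG reads the same on both strands, so 1 strand was searched. Of the 66 members, 51 had a window. Taking the richest window of each gene, the median was 23 CG over the 9 members that reached 1 CPM in all 7 libraries, 9.5 over the 28 that did so in 1 to 6 libraries and 6 over the 14 that did so in none, beside 6 over all 27025 genes with a window. These counts are a description of sequence only.

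50 of the 66 members reached 1 CPM in at least 1 library, 27 reached 10 CPM and 4 reached 100 CPM, Scn7a, Cacnb3 and Trpm7 among them. The 16 members below 1 CPM everywhere were Scn1a, Scn10a, Cacna1i, Cacna2d2, Cacna2d4, Cacng1, Cacng2, Cacng3, Cacng6, Cacng7, Cacng8, Trpv5, Trpc5, Trpm1, Trpm5 and Trpm8. 12 members reached 1 CPM in all 7 libraries, among them Cacna2d1, Cacnb1, Cacnb3, Cacnb4, Trpv2, Trpc1, Trpc2, Trpm3, Trpm4 and Trpm7. Of the 50 detected members, 23 (46%) had their highest CPM in bowel primary cells, where 16.3% of all 16461 detected genes did. tdTomato-negative spheroid cells held the highest value of 10 members (20%, beside 11.9% of all genes), adipose primary cells of 9 (18%, beside 17.3%) and tdTomato-positive spheroid cells of 3 (6%, beside 6.32%). The 3 neurosphere libraries together held few: 2 members in adipose neurospheres, 1 in M2 and 2 in M1 neurospheres, or 4%, 2% and 4%, beside 14.1%, 14.3% and 19.8% of all genes. Trpc2, the pheromone-sensing channel of the mouse vomeronasal organ, stood at 5.58 to 16.9 CPM in the 7 libraries, but 97.5% of its exon bases lie in exons of Xntrpc on the same strand, so its reads are uncertain.

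**Figure D1:**
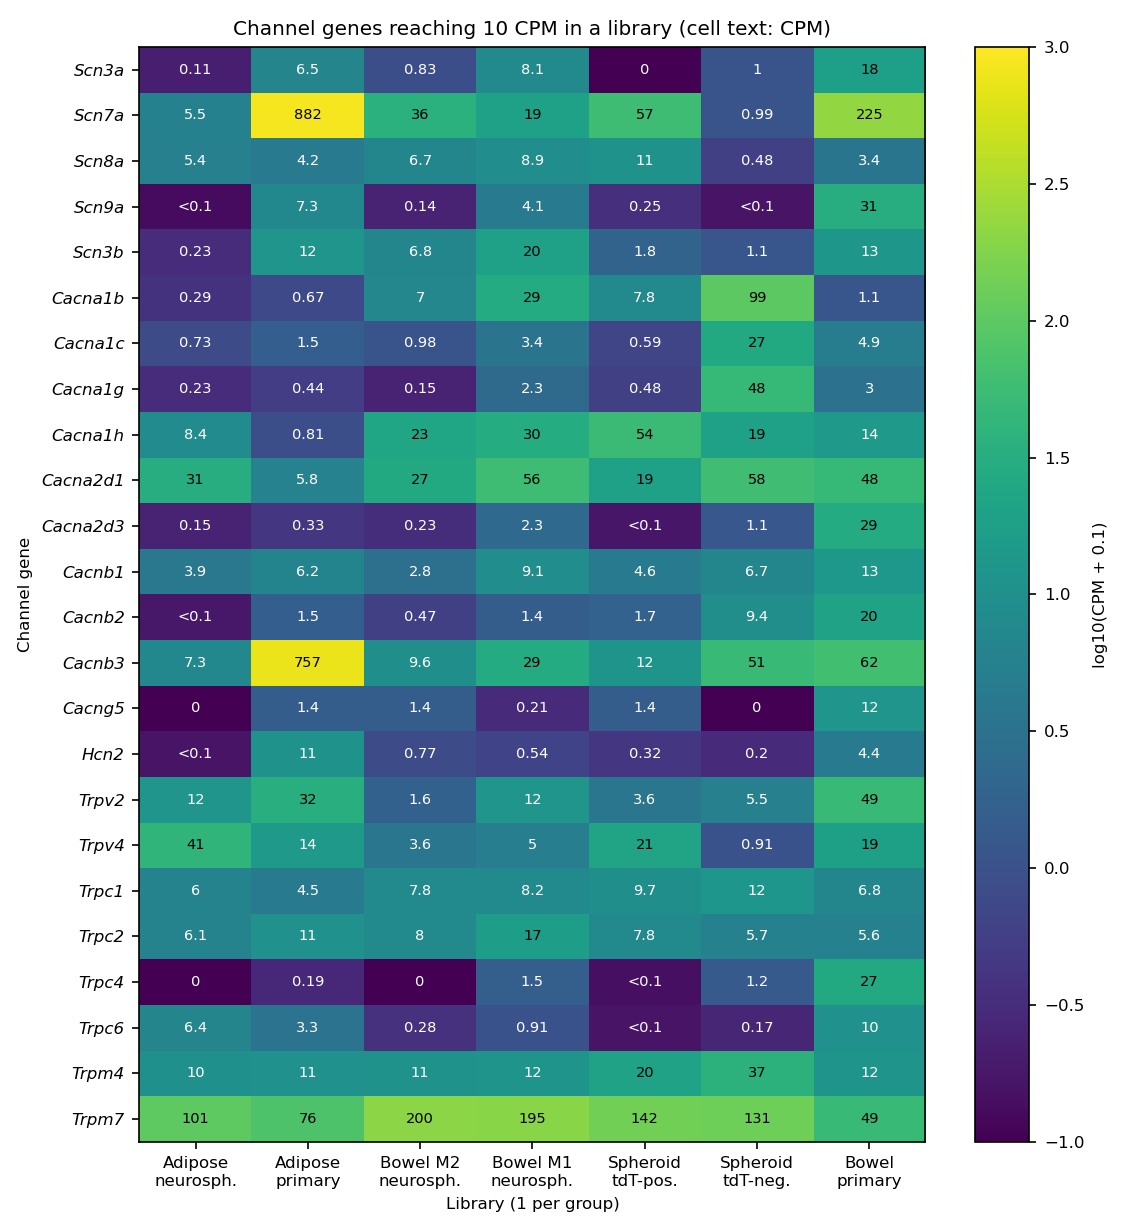
CPM of 24 channel genes that reached 10 CPM in a library (rows), in the 7 libraries (columns), coloured on a log10(CPM + 0.1) scale with the CPM written in each cell. Scn7a and Cacnb3 peak in adipose primary cells at 882 and 757 CPM, Cacna1b and Cacna1g peak in tdTomato-negative spheroid cells at 99.2 and 47.8 CPM, and Trpm7 is at 48.8 CPM or more in every library.

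Among sodium channel alpha subunits, Scn7a dominated. It encodes Nax, a channel that senses extracellular sodium rather than voltage and is known from glia and non-myelinating Schwann cells. Scn7a (Entrez 20272, chr2:66673426-66784910) was at 5.54 CPM in adipose neurospheres, 882 in adipose primary cells, 35.6 in M2 neurospheres, 19.4 in M1 neurospheres, 57.0 in tdTomato-positive spheroid cells, 0.990 in tdTomato-negative spheroid cells and 225 in bowel primary cells. The highest library stood 891-fold above the lowest in CPM. Levels of different genes were compared as CPM per kb of annotated exon. On that scale Scn7a made up 98.6% of the alpha subunit total in adipose primary cells, 85.4% in tdTomato-positive spheroid cells, 84.9% in M2 neurospheres, 82.5% in bowel primary cells, 62.5% in adipose neurospheres and 53.1% in M1 neurospheres. In tdTomato-negative spheroid cells its share was 38.6%, and the alpha subunits summed to only 3.62 CPM there. Scn8a, the main channel of nodes and axon initial segments, had its lowest value in tdTomato-negative spheroid cells. It stood at 5.39 CPM in adipose neurospheres, 4.25 in adipose primary cells, 6.74 in M2 neurospheres, 8.90 in M1 neurospheres, 10.8 in tdTomato-positive spheroid cells, 0.479 in tdTomato-negative spheroid cells and 3.43 in bowel primary cells.

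The alpha subunit genes Scn9a, Scn3a, Scn11a and Scn2a were each highest in bowel primary cells. Scn9a, a threshold channel of nociceptors, was at 0.0325 CPM (2 reads) in adipose neurospheres, 7.31 in adipose primary cells, 0.138 in M2 neurospheres, 4.14 in M1 neurospheres, 0.248 in tdTomato-positive and 0.0618 in tdTomato-negative spheroid cells, and 31.2 in bowel primary cells. Scn3a, an alpha subunit prominent in developing neurons, was at 0.114 CPM in adipose neurospheres, 6.51 in adipose primary cells, 0.827 in M2 neurospheres, 8.13 in M1 neurospheres, 0 reads in tdTomato-positive spheroid cells, 1.01 in tdTomato-negative spheroid cells and 18.1 in bowel primary cells. After bowel primary cells, adipose primary cells and M1 neurospheres came next for both genes, adipose primary cells ahead for Scn9a and M1 neurospheres ahead for Scn3a, with all other libraries near 1 CPM or below. Scn11a, a persistent-current channel of sensory and enteric neurons, reached 6.90 CPM in bowel primary cells, and Scn2a, a brain alpha subunit, 6.86 CPM. Elsewhere Scn11a was at 0 to 1.04 CPM and Scn2a at 0.243 to 2.79 CPM, each highest in M1 neurospheres.

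Of the beta subunits, Scn3b was at 0.227 CPM in adipose neurospheres, 12.3 in adipose primary cells, 6.75 in M2 neurospheres, 19.7 in M1 neurospheres, 1.76 in tdTomato-positive spheroid cells, 1.07 in tdTomato-negative spheroid cells and 12.9 in bowel primary cells. Scn2b reached 5.10 CPM in bowel primary cells and at most 0.603 CPM in the other libraries.

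The pore subunits of calcium channels were split between libraries. Cacna1h, a low-voltage T-type pore, was at 8.38 CPM in adipose neurospheres, 0.812 in adipose primary cells, 23.3 in M2 neurospheres, 29.7 in M1 neurospheres, 53.6 in tdTomato-positive spheroid cells, 19.3 in tdTomato-negative spheroid cells and 13.8 in bowel primary cells. It was the leading alpha1 subunit per kb in 5 libraries, with 85.0% of the alpha1 total in tdTomato-positive spheroid cells, 72.4% in M2 neurospheres, 62.2% in adipose neurospheres, 46.4% in bowel primary cells and 44.8% in M1 neurospheres. Cacna1b, the N-type pore of nerve terminals, was at 0.292 CPM in adipose neurospheres, 0.672 in adipose primary cells, 6.98 in M2 neurospheres, 29.1 in M1 neurospheres, 7.85 in tdTomato-positive spheroid cells, 99.2 in tdTomato-negative spheroid cells and 1.07 in bowel primary cells. Its highest level was thus in the library sorted as tdTomato-negative, where it made up 53.6% of the alpha1 total per kb, and it followed Cacna1h closely in M1 neurospheres with 43.2%. The 12 pan-neuronal markers summed to 74.2 CPM in tdTomato-negative spheroid cells, against 108 to 3773 CPM in the other libraries. Snap25, a synaptic vesicle fusion gene, made up most of that sum at 47.3 CPM, against 2.01 CPM in tdTomato-positive spheroid cells, while Elavl3, Prph and Nefl had 0 reads. The part of neuronal RNA in the Cacna1b level was not tested.

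**Figure D2:**
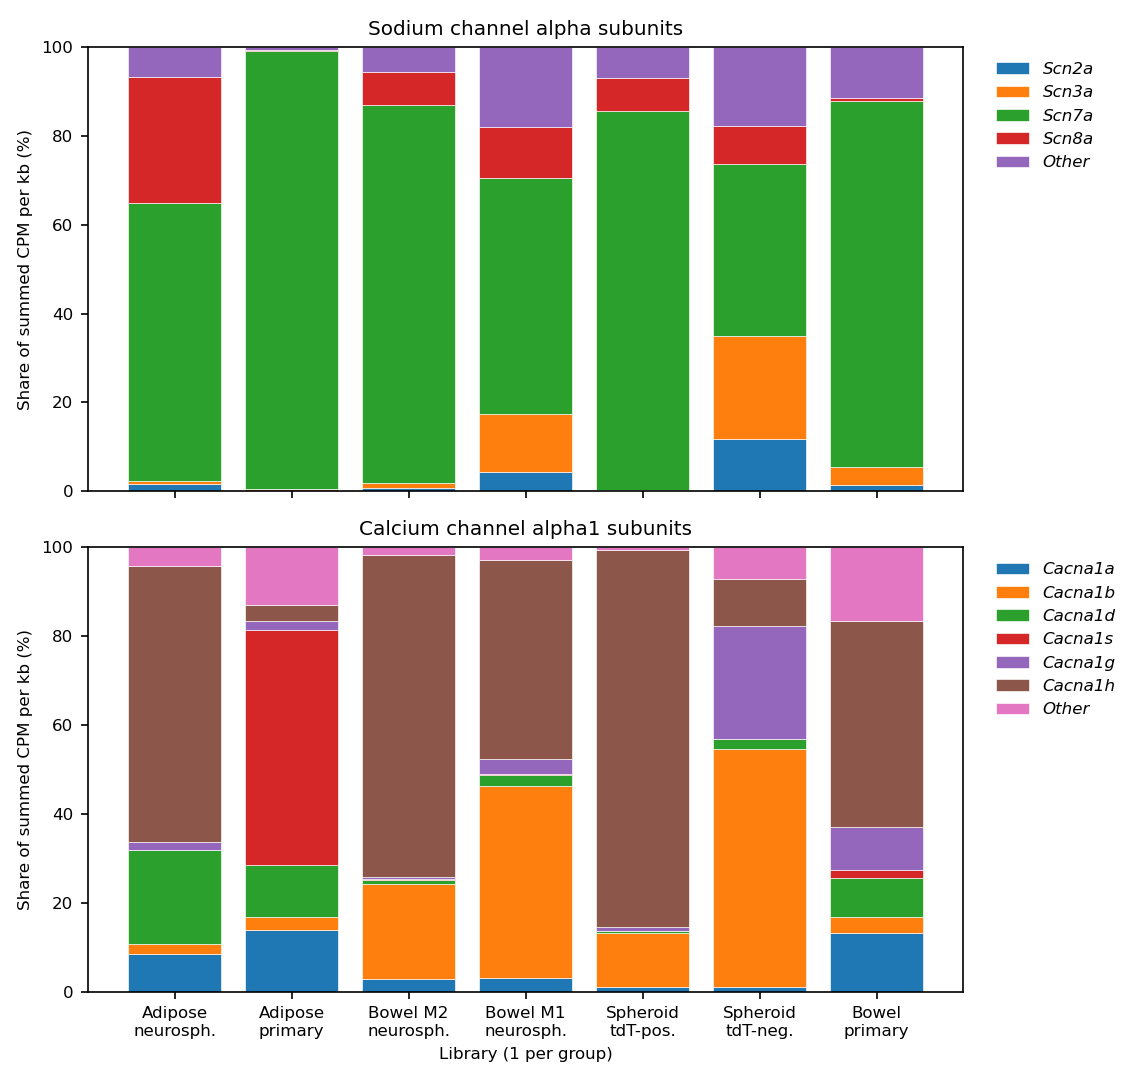
Share of summed CPM per kb taken by sodium channel alpha subunits (top) and calcium channel alpha1 subunits (bottom) in the 7 libraries, in percent, with several genes summed as other, among them those under 10% in every library. Scn7a takes 98.6% of the alpha subunit total in adipose primary cells and 38.6% in tdTomato-negative spheroid cells; Cacna1h takes 85.0% of the alpha1 total in tdTomato-positive and 10.6% in tdTomato-negative spheroid cells, where Cacna1b takes 53.6%.

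3 other pore genes stood out in single libraries. Cacna1g, another T-type pore, was at 0.227 CPM in adipose neurospheres, 0.437 in adipose primary cells, 0.153 in M2 neurospheres, 2.31 in M1 neurospheres, 0.480 in tdTomato-positive spheroid cells, 47.8 in tdTomato-negative spheroid cells and 2.96 in bowel primary cells. Cacna1c, the L-type pore of smooth and cardiac muscle, was at 0.730 CPM in adipose neurospheres, 1.48 in adipose primary cells, 0.980 in M2 neurospheres, 3.35 in M1 neurospheres, 0.588 in tdTomato-positive spheroid cells, 27.1 in tdTomato-negative spheroid cells and 4.87 in bowel primary cells. Both were thus highest in tdTomato-negative spheroid cells. Cacna1c reached only 4.87 CPM in bowel primary cells, the library in which the smooth muscle markers summed to 26851 CPM. Cacna1s, the pore of skeletal muscle, was at 7.98 CPM in adipose primary cells and at 0 to 0.347 CPM in the other 6 libraries, and it made up 52.8% of the alpha1 total per kb there. The 8 skeletal muscle markers summed to 18.9 CPM in that library and to 114 CPM in bowel primary cells. Ckm made up most of the bowel sum, at 90.6 CPM against 0.297 CPM in adipose primary cells. Acta1 and Ryr1 also had more CPM in bowel primary cells. Ttn (7.37 against 0.503 CPM), Mylpf (5.26 against 1.87 CPM), Myh1, Myh4 and Tnnt3 had more in adipose primary cells. Of the Cacna1s exon bases, 20% overlap Gm37759 on the opposite strand. The part of muscle RNA and of this overlap in the Cacna1s level was not tested. Cacna1d, an L-type pore, ranged from 0.402 CPM in tdTomato-positive to 5.10 CPM in tdTomato-negative spheroid cells, and Cacna1e, the R-type pore, reached 5.91 CPM in bowel primary cells and at most 0.922 CPM elsewhere.

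Among the accessory subunits, Cacna2d1, the binding partner of gabapentin, was at 30.7 CPM in adipose neurospheres, 5.79 in adipose primary cells, 26.6 in M2 neurospheres, 56.4 in M1 neurospheres, 19.2 in tdTomato-positive spheroid cells, 58.4 in tdTomato-negative spheroid cells and 48.1 in bowel primary cells. Cacna2d3 reached 29.1 CPM in bowel primary cells and 2.25 CPM in M1 neurospheres, and stood at 0.0774 to 1.10 CPM in the other 5 libraries. Bowel primary cells were the only library in which Cacna2d1 shared the alpha2delta total per kb nearly evenly with another member, at 52.9% against 45.6% for Cacna2d3. Of the beta subunits, Cacnb3 (chr15:98628436-98644536) was at 7.34 CPM in adipose neurospheres, 757 in adipose primary cells, 9.62 in M2 neurospheres, 28.7 in M1 neurospheres, 11.7 in tdTomato-positive spheroid cells, 51.3 in tdTomato-negative spheroid cells and 62.2 in bowel primary cells. Its value in adipose primary cells was the highest CPM per kb of any member in any library, at 189. In the same library the mature dendritic marker Ccr7 stood at 1473 CPM, against 0 to 43.2 CPM in the others; the part of such cells in the Cacnb3 level was not tested.

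Cacnb2, the main beta subunit of the heart, was at 0.0812 CPM in adipose neurospheres, 1.45 in adipose primary cells, 0.475 in M2 neurospheres, 1.43 in M1 neurospheres, 1.70 in tdTomato-positive spheroid cells, 9.39 in tdTomato-negative spheroid cells and 20.1 in bowel primary cells. Cacnb1 and Cacnb4 were above 1 CPM in every library, at 2.85 to 13.3 CPM and 2.01 to 6.76 CPM, each highest in bowel primary cells. Cacng5 and Cacng4, which belong to the family of proteins that escort glutamate receptors, were the gamma subunits that reached 1 CPM. Cacng5 was at 12.2 CPM in bowel primary cells, 1.41 to 1.42 CPM in adipose primary cells, M2 neurospheres and tdTomato-positive spheroid cells, 0.212 CPM in M1 neurospheres, and at 0 reads in adipose neurospheres and tdTomato-negative spheroid cells. Cacng4 was at 1.38 to 3.19 CPM in M2 neurospheres, M1 neurospheres and bowel primary cells and at 0.0619 CPM or less in the other 4 libraries.

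Hcn2, a pacemaker-current channel of heart and sensory neurons, was at 0.0649 CPM (4 reads) in adipose neurospheres, 11.4 in adipose primary cells, 0.766 in M2 neurospheres, 0.540 in M1 neurospheres, 0.325 in tdTomato-positive spheroid cells, 0.201 in tdTomato-negative spheroid cells and 4.44 in bowel primary cells. Both libraries of uncultured cells were thus the highest. Hcn3 was at 0.356 CPM in tdTomato-negative spheroid cells and at 1.41 to 7.38 CPM in the other 6 libraries, and 17.1% of its exon bases overlap Pklr on the opposite strand. Per kb, Hcn2 led the HCN genes in adipose primary cells with 73.0% of their total, and Hcn3 led in M1 neurospheres (55.7%) and bowel primary cells (49.7%). Hcn4 reached 1.01 CPM in bowel primary cells and at most 0.510 CPM elsewhere.

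Trpm7, a magnesium-conducting channel fused to a kinase, was the most abundant TRP gene, at 101 CPM in adipose neurospheres, 75.6 in adipose primary cells, 200.2 in M2 neurospheres, 195 in M1 neurospheres, 142 in tdTomato-positive spheroid cells, 131 in tdTomato-negative spheroid cells and 48.8 in bowel primary cells. The highest library was only 4.10-fold above the lowest, and both libraries of uncultured cells were the lowest. Trpm4, a sodium-conducting channel opened by calcium, stood at 10.2 to 19.9 CPM in 6 libraries and at 36.7 CPM in tdTomato-negative spheroid cells. Trpc1, a partner subunit of other TRPC channels, stood at 4.48 to 12.3 CPM. These 3 genes reached 4 CPM in every library.

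Trpv4 and Trpv2 varied more between libraries than those 3. Trpv4, a channel of osmotic and mechanical stimuli, was at 41.3 CPM in adipose neurospheres, 14.3 in adipose primary cells, 3.63 in M2 neurospheres, 5.05 in M1 neurospheres, 21.3 in tdTomato-positive spheroid cells, 0.912 in tdTomato-negative spheroid cells and 18.6 in bowel primary cells. Trpv2, a channel prominent in macrophages and sensory neurons, was at 12.1 CPM in adipose neurospheres, 32.1 in adipose primary cells, 1.62 in M2 neurospheres, 12.0 in M1 neurospheres, 3.57 in tdTomato-positive spheroid cells, 5.50 in tdTomato-negative spheroid cells and 49.4 in bowel primary cells. The 3 libraries with 1336 to 4215 CPM of macrophage markers were among the 4 with the highest Trpv2. In M1 neurospheres, Lyz2 made up most of that marker sum at 1213 CPM, and the other macrophage markers stood at 2.29 to 46.4 CPM. Those others stood at 47.1 to 133 CPM in adipose and 114 to 399 CPM in bowel primary cells. The part of macrophages in the Trpv2 level was not tested. Trpa1, the irritant receptor of sensory neurons and gut endocrine cells, stood at 5.80 CPM in tdTomato-negative spheroid cells and at 0 to 0.154 CPM in all other libraries.

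Several receptor-operated TRPC channels were highest in bowel primary cells. Trpc4, which carries the muscarinic cation current of gut smooth muscle, was at 0 reads in adipose neurospheres and M2 neurospheres, 0.187 CPM in adipose primary cells, 1.5 in M1 neurospheres, 0.0464 (3 reads) in tdTomato-positive spheroid cells, 1.24 in tdTomato-negative spheroid cells and 26.9 in bowel primary cells. Trpc6 was at 6.43 CPM in adipose neurospheres, 3.26 in adipose primary cells, 0.276 in M2 neurospheres, 0.906 in M1 neurospheres, 0.0619 in tdTomato-positive spheroid cells, 0.170 in tdTomato-negative spheroid cells and 10.5 in bowel primary cells. Both were highest in bowel primary cells, where Trpc7 reached 5.01 CPM and Trpm2 8.15 CPM, against at most 0.578 and 1.10 CPM in the other libraries. Smooth muscle markers summed to 26851 CPM, macrophage markers to 4215 CPM and mesothelial markers to 1594 CPM in bowel primary cells, each the highest sum of any library. The part of RNA from these cell types in the TRP levels was not tested.

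Pairs of libraries were then compared as log2 ratios of reads scaled by the trimmed mean of M-values (TMM), with a 95% counting interval that covers counting error only. Genes at 1 CPM or more in at least 1 library of the pair were measured. A gene passed when the libraries differed at least 4-fold with an interval wholly beyond 2-fold, and only such genes are called higher or lower. Beside each count of members stands the share of all measured genes that passed in the same direction.

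The sort of 10-day bowel spheroids sets crest-derived cells against the other cells that grew beside them, in the same culture. tdTomato-positive cells had more RNA of the sodium channel genes Scn7a and Scn8a, of Hcn3 and of Trpv4, and less of 4 calcium channel pores and of several TRP genes. Of 33 measured members, 7 were higher in tdTomato-positive cells (21.2%, beside 6.64% of all 13951 measured genes) and 12 were lower (36.4%, beside 12.5%). The median log2 ratio of the members was -0.86, beside 0.01 over all genes. Scn7a was higher at a log2 ratio of 5.57 (interval 5.25 to 5.99) and Scn8a by 4.17 (3.73 to 4.81). Scn3a had 0 reads in tdTomato-positive and 65 in tdTomato-negative cells and was at least 25.6-fold lower. Trpv4 was higher by 4.26 (3.93 to 4.71) and Hcn3 by 3.26 (2.74 to 4.04), and Cacng5, with 92 reads against 0, was at least 26.0-fold higher.

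Calcium channel genes made up most of the other direction. 4 of 6 measured alpha1 subunits were lower in tdTomato-positive cells: Cacna1g at a log2 ratio of -6.78 (-7.44 to -6.37), Cacna1c at -5.69 (-6.27 to -5.31), Cacna1b at -3.90 (-4.04 to -3.77) and Cacna1d at -3.80 (-4.54 to -3.33). Cacna1h, at 53.6 CPM against 19.3 CPM, did not pass, with a log2 ratio of 1.23 (1.14 to 1.33). Cacnb2 was lower at -2.68 (-3.01 to -2.41) and Cacnb3 at -2.37 (-2.48 to -2.25). Among TRP genes, Trpa1 was lower at -6.74 (-10.84 to -5.93; 2 reads against 375). Cacna2d3, Trpm6 and Trpc4 were lower too, with at most 2.63 CPM in tdTomato-negative cells. 14 measured members did not pass, among them Trpc1 (-0.58) and Trpm7 (-0.13). The 8 fibroblast markers (5126 against 47311 CPM), the 5 markers of the interstitial cells of Cajal (98.2 against 4297 CPM) and the 10 glial markers (5050 against 25.6 CPM) moved between the same libraries. Thbs4 made up most of the Cajal cell sum in tdTomato-negative cells, at 3939 CPM. Of the 5 Cajal cell markers, 4 were lower in tdTomato-positive cells. Of 9 measured pan-neuronal markers 8 were higher in tdTomato-positive cells and Snap25 was lower, and 4 of 4 measured mesothelial and 5 of 6 endothelial markers were lower. The part of these cells in the channel differences was not tested.

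**Figure D3:**
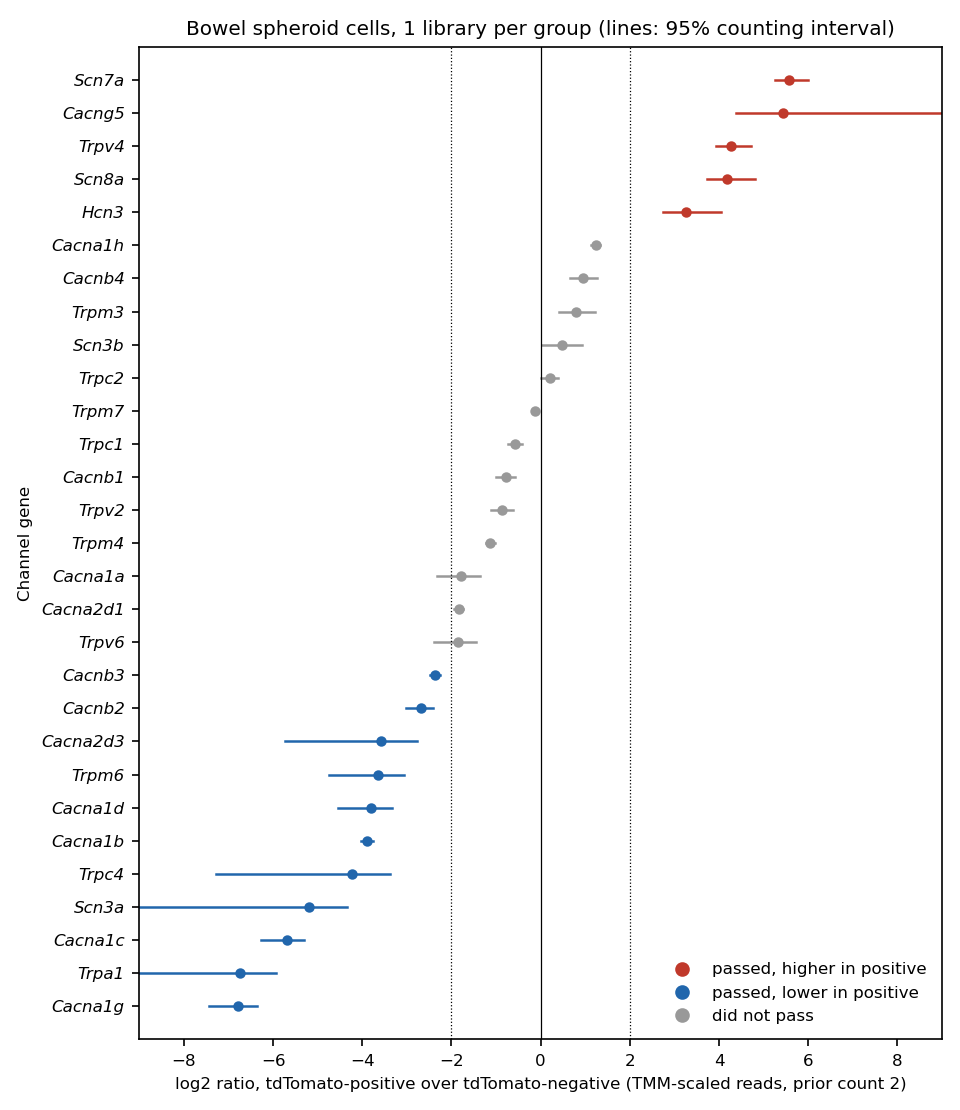
Log2 ratios, tdTomato-positive over tdTomato-negative bowel spheroid cells, of 29 measured channel genes (points) with 95% counting intervals (lines); dotted lines mark 4-fold. The intervals of Cacng5 and Scn3a are open on the side of the library with 0 reads, so their points depend on the prior count, and that of Trpa1 runs past the axis to -10.84. Scn7a is highest at 5.57 and Cacna1g lowest at -6.78.

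Among the genes that work with these channels, 5 of 9 measured sodium channel partners were higher in tdTomato-positive cells (55.6%, beside 6.64% of all genes) and 1 was lower (11.1%, beside 12.5%). The adhesion molecule gene Nrcam was at 589 against 6.28 CPM (log2 ratio 6.30), the anchor gene Ank3 at 1075 against 138 CPM (2.72) and the ubiquitin ligase gene Nedd4l at 157 against 32.1 CPM (2.05), whereas Nfasc was at 2.52 against 12.4 CPM (-2.52). Of 11 measured calcium channel partners, 2 were higher (18.2%), with Rrad at 110 against 22.8 CPM (2.03), and 3 were lower (27.3%), with Stac at 0.867 against 23.3 CPM (-4.94). 4 of 11 measured calcium release and store genes were lower (36.4%) and none higher, among them the pump gene Atp2a3 at 0.681 against 33.0 CPM (-5.77) and the receptor gene Itpr1 at 6.61 against 39.0 CPM (-2.80). Of 12 other measured cation channels, the sodium leak channel gene Nalcn was higher, at 40.3 against 0.278 CPM (6.80), and 5 were lower (41.7%), with Asic3 at 0.340 against 10.3 CPM (-5.03). In the calcium extrusion list 1 of 6 measured genes was higher and 1 lower (16.7% each), and a share resting on 1 gene is not set apart from that of all genes.

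Freshly sorted cells of the 2 tissues were compared next, as whole libraries that also held markers of other cell types. Adipose primary cells had more RNA of Cacnb3, Cacna1s and Scn4a and less of a wide range of channels, among them TRPC and alpha2delta genes. Of 48 measured members, 3 were higher in adipose primary cells (6.25%, beside 7.09% of all 15585 measured genes, so the share is near that of all genes) and 18 were lower (37.5%, beside 11.4%). The median log2 ratio was -0.87, beside 0.09 over all genes. Cacnb3 was higher by 3.59 (3.54 to 3.64) and Cacna1s by 4.38 (3.86 to 5.23), and Scn4a, the other skeletal muscle pore, had 68 reads against 0, at least 20.2-fold. Scn7a, at 882 against 225 CPM, did not pass, with a log2 ratio of 1.95 (1.93 to 1.98). Among alpha subunits, Scn2a was lower at -4.21 (-5.03 to -3.72), Scn11a at -3.38 (-3.95 to -2.98) and Scn9a at -2.11 (-2.26 to -1.96). Trpc4 was lower at -6.95 (-8.14 to -6.37) and Trpc7 at -5.33 (-7.22 to -4.62).

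Calcium channel subunits followed. Both measured alpha2delta genes were lower in adipose primary cells, Cacna2d3 at -6.35 (-7.19 to -5.87) and Cacna2d1 at -3.06 (-3.23 to -2.92). Both measured T-type pores were lower too, with Cacna1h at -4.05 (-4.54 to -3.70) and Cacna1g, at 0.437 against 2.96 CPM, at -2.69. Cacnb2 was lower at -3.78 (-4.13 to -3.50), Cacng5 at -3.11 (-3.47 to -2.82) and Cacna1e at -2.66 (-3.12 to -2.30). Hcn2 did not pass, with a log2 ratio of 1.34 (1.14 to 1.56). Scn2b was lower at -4.46 (-5.60 to -3.87) and Trpm2 at -3.29 (-3.79 to -2.93), and Cacng4 and Trpv6 were lower too. Smooth muscle markers (462 against 26851 CPM) and pan-neuronal markers (108 against 1943 CPM) were lower in the same direction, as were all 6 mesothelial markers, and 7 of 8 myelin, 6 of 8 mature dendritic and 8 of 8 lymphocyte markers were higher. Their part in the result was not tested. Of the partner lists, 5 of 12 measured sodium channel partners were lower (41.7%, beside 11.4% of all genes) and none higher, with Cntn1 at 1.59 against 44.9 CPM (-4.81) and Fgf13 at 15.6 against 155 CPM (-3.33). 8 of 16 measured other cation channels were lower (50%), with Asic2 at 0.344 against 28.1 CPM (-6.24), and 5 of 8 measured calcium extrusion genes were lower (62.5%), with Slc24a3 at 5.29 against 152 CPM (-4.85), while Slc24a2 was higher at 20.5 against 0.971 CPM (4.34). 3 of 14 calcium release genes, the 3 ryanodine receptors, were lower (21.4%), and 1 of 13 calcium channel partners passed in each direction (7.69%), near the shares of all genes.

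After culture by the same method, adipose and bowel M2 neurospheres differed in other channels. Adipose neurospheres had more Trpv4, Trpv2, Trpc6 and Cacna1d RNA and less Scn3b, Cacna1b, Scn7a, Cacng4 and Cacng5 RNA. Of 27 measured members, 6 were higher (22.2%, beside 5.33% of all 13440 measured genes) and 6 lower (22.2%, beside 8.71%), and the median log2 ratio was -0.27, beside -0.01 over all genes. Trpv4 was higher by 3.62 (3.44 to 3.83), Trpv2 by 3.0 (2.73 to 3.33) and Trpc6 by 4.51 (3.98 to 5.43). Scn3b was lower at -4.60 (-5.66 to -4.01), Cacna1b at -4.32 (-5.23 to -3.78) and Scn7a at -2.56 (-2.74 to -2.40). With M1 neurospheres as the bowel library, Scn7a had a log2 ratio of -1.51, Trpv2 one of 0.31 and Cacna1d one of 1.01, and with tdTomato-positive spheroid cells Trpv4 had 0.96 and Trpv2 1.76, none of which passed. Cacng5, at 0 against 0.212 CPM with M1 neurospheres, and Cacng4, at 0 against 0.0619 CPM with tdTomato-positive spheroid cells, were then below 1 CPM in both libraries and not measured. Of the partner genes, Nalcn was at 0.406 against 41.6 CPM (-6.46), Fgf13 at 0.276 against 22.7 CPM (-6.09) and Slc24a2 at 0.0487 against 15.6 CPM (-7.51), while Stac2 was at 12.7 against 0.904 CPM (3.88). Pan-neuronal markers summed to 873 CPM in adipose and 3682 CPM in M2 neurospheres. Gap43 alone made up most of the M2 sum, at 2917 CPM against 120 CPM in adipose neurospheres. Of 10 measured pan-neuronal markers, 6 were lower in adipose neurospheres and 1 was higher, Uchl1 at 502 against 105 CPM.

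The 2 tissue comparisons share no library. Of the 18 members lower in adipose primary cells, 3 (16.7%) were also lower in adipose neurospheres, Cacng4 and Cacng5 among them, which are 50% of the 6 lower there. Over all genes, 22.2% of the 1774 lower in adipose primary cells and 33.6% of the 1171 lower in adipose neurospheres were lower in both, so with 3 members the overlap is not set apart from that of all genes. No member was higher in adipose in both, where 7.87% of the 1105 genes higher in primary cells and 12.2% of the 716 higher in neurospheres were.

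**Figure D4:**
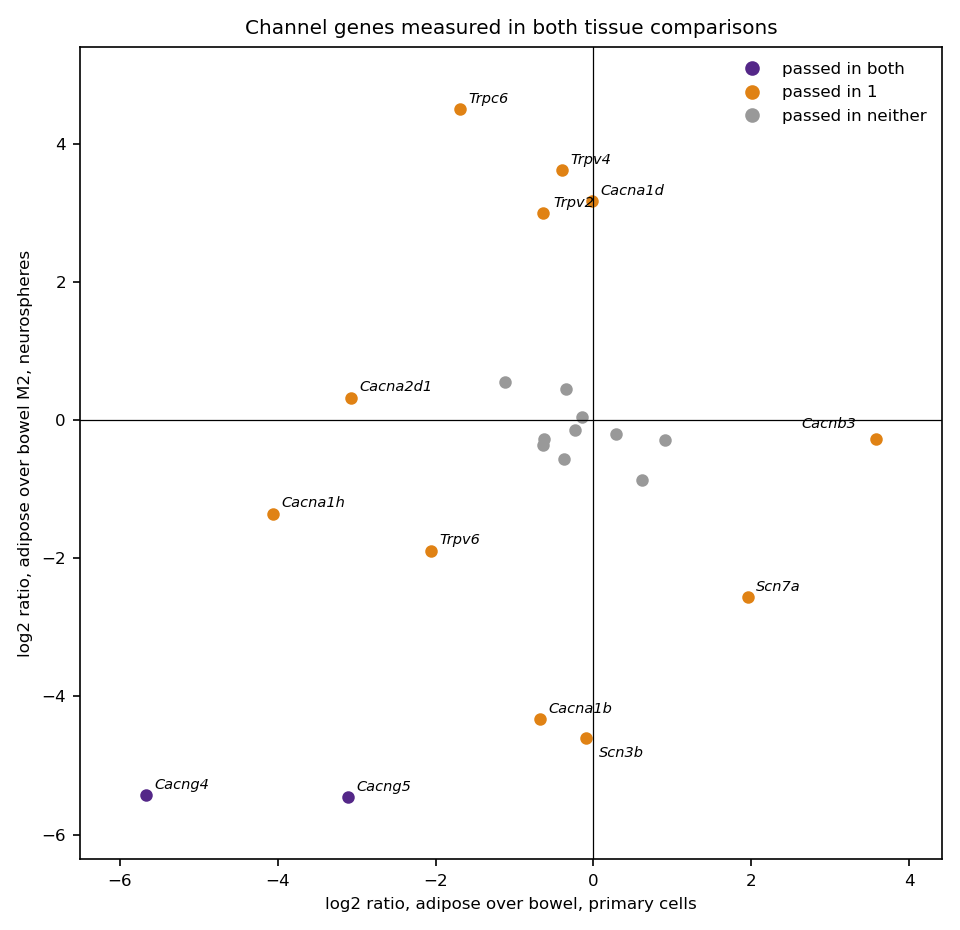
Log2 ratios, adipose over bowel, of 23 channel genes measured in both tissue comparisons: primary cells on the horizontal axis, neurospheres (adipose over bowel M2) on the vertical axis. Colours mark genes that passed in both comparisons, in 1 or in neither. Cacng4 and Cacng5 sit in the lower left, and Trpc6 is the highest on the vertical axis at 4.51.

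Culture of adipose cells was read by setting adipose neurospheres against adipose primary cells. Cacna1h and Cacna2d1 were higher in the neurospheres, while Scn7a, Cacnb3, Hcn2 and Scn9a were among 13 that were lower. The 3 higher members are 8.82% of the 34 measured (beside 5.71% of all 14773 genes) and the 13 lower ones 38.2% (beside 20.8%), with a median log2 ratio of -1.34, beside -0.01 over all genes. Cacna1h was higher by 3.17 (2.81 to 3.66) and Cacna2d1 by 2.25 (2.10 to 2.42). Scn7a was lower at -7.45 (-7.62 to -7.31), Hcn2 at -7.01 (-9.49 to -6.24), Cacnb3 at -6.83 (-6.97 to -6.70), Scn3b at -5.71 (-6.78 to -5.15) and Scn3a at -5.62 (-7.31 to -4.93). Scn9a was lower at -6.94 (-11.01 to -6.10; 2 reads against 468) and Cacna1s at -7.48 (-14.39 to -6.60; 1 read against 511). None of the 3 measured TRPM genes passed. Mature dendritic markers (207 against 5725 CPM) and myelin markers (128 against 5086 CPM) moved with these genes, and all 7 macrophage, 8 lymphocyte and 6 endothelial markers were lower too. Their part was not tested. Among partners, Nrcam was at 316 against 44.0 CPM (2.70), Stim1 at 117 against 26.1 CPM (2.02) and Piezo1 at 62.1 against 11.9 CPM (2.24), whereas Slc24a2 was at 0.0487 against 20.5 CPM (-8.11), Gem at 8.68 against 265 CPM (-5.07) and Itpr1 at 2.09 against 62.9 CPM (-5.03).

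Bowel culture was read in 3 libraries against the same bowel primary cells, so these comparisons share that library. In M2 neurospheres 2 of 42 measured members were higher (4.76%, beside 5.89% of all 15189 genes) and 26 were lower (61.9%, beside 21%). In M1 neurospheres 1 of 42 was higher (2.38%, beside 6.58% of 15422) and 16 were lower (38.1%, beside 16.3%), and in tdTomato-positive spheroid cells 2 of 42 were higher (4.76%, beside 6.57% of 15232) and 25 lower (59.5%, beside 20.4%). The shares that were higher are near or below those of all genes. Median log2 ratios of the members were -2.70, -1.40 and -2.87 in M2 neurospheres, M1 neurospheres and tdTomato-positive spheroid cells, beside -0.07, -0.07 and -0.03 over all genes. Of all genes that passed in M1 neurospheres, 28.7% were higher, and 44.7% with libraries scaled by their totals alone.

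Cacna1b was higher than in bowel primary cells in each of the 3 cultured libraries, by 2.38 (2.03 to 2.82) in M2 neurospheres, 4.26 (3.93 to 4.69) in M1 neurospheres and 2.66 (2.31 to 3.10) in tdTomato-positive spheroid cells. Scn7a was lower at -2.94 (-3.01 to -2.88), -3.99 (-4.08 to -3.90) and -2.15 (-2.20 to -2.10) in M2 neurospheres, M1 neurospheres and tdTomato-positive spheroid cells. Scn9a was lower at -7.78 (-9.24 to -7.18), -3.36 (-3.58 to -3.17) and -6.96 (-7.96 to -6.45) in the same order. Trpc4 had 0 reads in M2 neurospheres against 1551 in bowel primary cells, at least 714-fold lower, and was lower at -4.58 (-4.97 to -4.29) in M1 neurospheres and -8.55 (-11.63 to -7.80; 3 reads) in tdTomato-positive spheroid cells.

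Trpc6 was lower at -5.36 in M2 neurospheres, -3.93 in M1 neurospheres and -6.94 in tdTomato-positive spheroid cells, Cacna2d3 at -7.06, -4.12 and -8.20, Cacnb2 at -5.59, -4.23 and -3.71, and Trpv2 at -5.18, -2.49 and -3.95, in the same 3 libraries. Trpm7 did not pass, with log2 ratios of 1.75 in M2 and 1.54 in M1 neurospheres. Smooth muscle markers summed to 69.7, 231 and 108 CPM in the M2, M1 and tdTomato-positive libraries, against 26851 CPM in bowel primary cells, mesothelial markers to 2.91, 86.7 and 1.19 CPM against 1594 CPM, and macrophage markers to 28.9, 1336 and 35.0 CPM against 4215 CPM. The pan-neuronal markers went both ways. Snap25 was at 6.34, 53.1 and 2.01 CPM against 417 CPM, and Snap25, Stmn2, Prph, Nefl and Nefm were lower in all 3 cultured libraries, while Gap43 was higher in M2 neurospheres and tdTomato-positive spheroid cells and Map2 in both neurosphere libraries. The part of these cell types in the lower values was not tested. Nrcam was higher in all 3 cultured libraries, at 370, 147 and 589 CPM against 22.9 CPM (log2 ratios 3.73, 2.22 and 4.51), and Nalcn at 41.6, 91.4 and 40.3 CPM against 6.10 CPM (2.48, 3.44 and 2.54). Slc24a3 was lower in all 3, at 2.30, 2.22 and 1.13 CPM against 152 CPM (-6.31, -6.53 and -7.20). Of the calcium release and store genes, 6 of 14 were lower in M2 neurospheres (42.9%, beside 21% of all genes), 3 in M1 neurospheres (21.4%, beside 16.3%, near the share of all genes) and 5 in tdTomato-positive spheroid cells (35.7%, beside 20.4%), where Itpr3 was the 1 higher gene.

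Most other members that passed in the bowel were highest in primary cells. Scn2b, Scn11a, Trpm2, Trpc7, Cacna1e, Cacng5 and Hcn2, each at 4.44 to 12.2 CPM in bowel primary cells, were lower in all 3 cultured libraries. Scn2b, with 294 reads in primary cells, had 0 reads in M2 neurospheres and in tdTomato-positive spheroid cells, at least 135-fold and at least 124-fold lower. Trpc7 had 0 reads in the same libraries against 289, at least 133-fold and at least 122-fold lower. Scn11a had log2 ratios of -4.63, -3.14 and -4.64 in M2 neurospheres, M1 neurospheres and tdTomato-positive spheroid cells, and Trpm2 ones of -3.72, -3.30 and -6.01. For Cacna1e the values were -5.15 in M2 and -3.14 in M1 neurospheres, with 0 reads against 341 in tdTomato-positive spheroid cells, at least 144-fold lower. Cacng5 stood at -3.37, -6.05 and -3.24.

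Some members passed in only part of the cultured libraries; whether the libraries differ in these ratios was not tested here beyond the direct pairs below. Scn3a was lower in M2 neurospheres at -4.68 and, with 0 reads against 1046, at least 440-fold in tdTomato-positive spheroid cells. Scn2a was lower in the same libraries at -3.77 and -4.78, and Cacnb3 at -2.97 and -2.57. Trpv4 was lower at -2.63 in M2 and -2.33 in M1 neurospheres. Scn3b was lower in tdTomato-positive spheroid cells at -3.02, and Cacnb1 (-2.49) and Hcn3 (-2.17) in M2 neurospheres.

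The adipose and M2 culture comparisons share no library, so their calls can be set side by side. 7 members were lower in both, 53.8% of the 13 in adipose and 26.9% of the 26 in bowel: Scn3a, Scn7a, Scn9a, Cacnb2, Cacnb3, Cacng5 and Hcn2. Over all genes 1658 were lower in both, 54.1% of the 3067 in adipose and 52% of the 3188 in bowel. The share of the adipose calls is near that of all genes. The share of the bowel calls is not compared, because 13 adipose calls are too few to reach 52% of 26. Cacna1h and Cacna2d1, higher in adipose neurospheres, had log2 ratios of 0.47 (0.34 to 0.59) and -1.14 (-1.23 to -1.06) in the bowel.

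**Figure D5:**
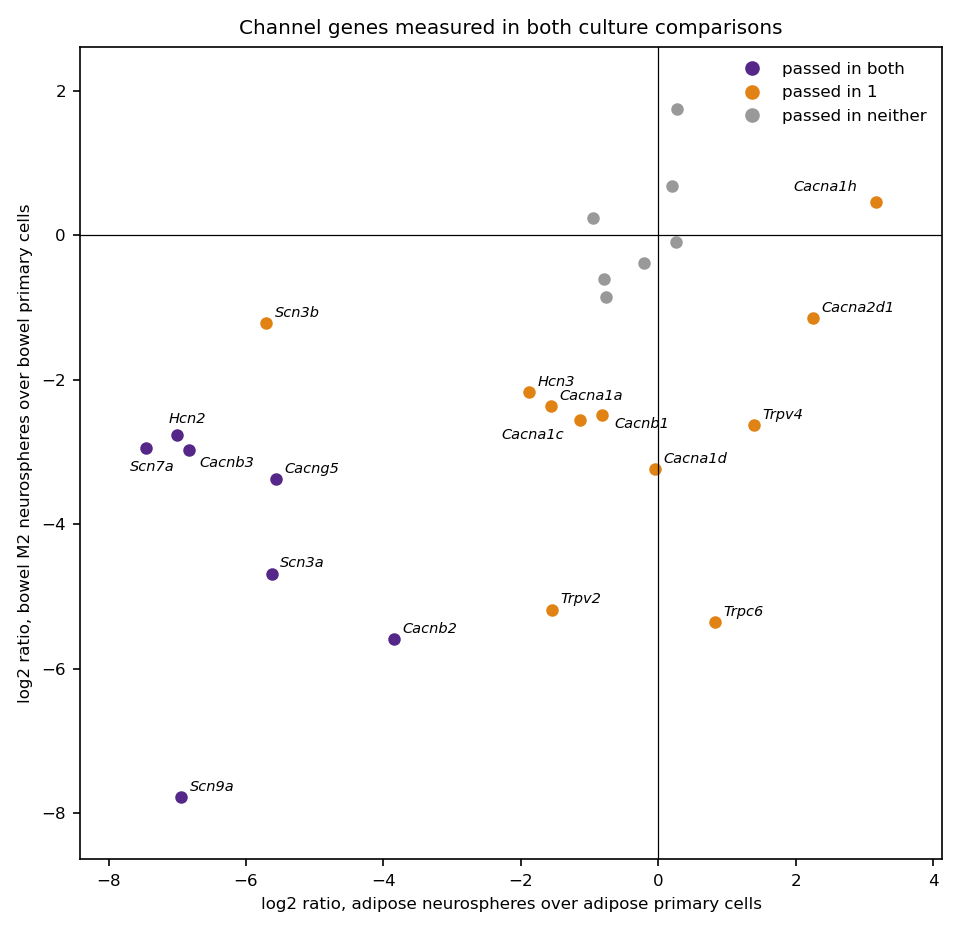
Log2 ratios of 25 channel genes measured in both culture comparisons: adipose neurospheres over adipose primary cells on the horizontal axis, bowel M2 neurospheres over bowel primary cells on the vertical axis. Colours mark genes that passed in both, in 1 or in neither. The 7 plotted genes that passed in both sit at the lower left.

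The routes of bowel culture were compared last. M2 neurospheres, sorted after the mixed phase, had less of 9 of 36 measured members than M1 neurospheres (25%, beside 7.37% of all 14141 genes) and more of 1 (2.78%, beside 1.2%), with a median log2 ratio of -0.94, beside -0.08 over all genes. Trpv2 was lower at -2.69 (-3.03 to -2.42) and Scn3a at -3.08 (-3.56 to -2.71) in M2 neurospheres. Scn2a, Scn9a, Cacna1d, Cacna1g, Cacna2d3 and Trpc4, each below 5 CPM in M1 neurospheres, were lower too, and Cacng5 was the higher one. Macrophage markers summed to 28.9 CPM in M2 and 1336 CPM in M1 neurospheres, and 4 of their 7 genes were lower. Lyz2 made up most of both sums, at 17.1 and 1213 CPM. Mesothelial markers (6 of 6 lower, summed to 2.91 against 86.7 CPM), fibroblast markers (6 of 8, 1051 against 2624 CPM), smooth muscle markers (4 of 8, 69.7 against 231 CPM) and Cajal cell markers (3 of 5, 287 against 478 CPM) were lower in the same direction, and so were the neuronal genes Snap25, Prph and Nefl. The part of these markers' cells in the channel differences was not tested. Atp2a3 was at 0.949 against 29.1 CPM (-4.72), and Slc8a3 was at 16.3 against 4.14 CPM (2.14). Against tdTomato-positive spheroid cells, the stage before their last 10 days, M2 neurospheres had 1 higher and 1 lower of 25 measured members (4% each, beside 3.07% and 3.86% of all 13432 genes), shares near those of all genes. Trpv4 was lower at -2.66 (-2.87 to -2.47), at 3.63 against 21.3 CPM, and Cacng4, with 90 reads against 4, was higher. The median log2 ratio of the members was -0.43, beside -0.02 over all genes. Cacna1b (-0.28) and Scn7a (-0.79) did not pass. Among the partner genes, Cntn1 was at 17.9 against 0.743 CPM (4.42) and Slc24a2 at 15.6 against 1.90 CPM (2.90), and Piezo1 at 21.8 against 84.0 CPM (-2.06).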

How the data were processed

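Values are CPM per Entrez gene for each of 7 libraries, as deposited by the authors in 1 table. Per the labels' protocols, RNA was amplified as full-length cDNA (SMART-Seq v4) and made into Nextera XT libraries. Per the submitters' processing notes, bcl2fastq 2.17, HISAT, featureCounts and mm10 were used; the sources used here do not give settings, strand use or annotation. The steps between deposited CPM values gave back read counts (100% of values whole within 0.05 read). Reads amplified by PCR and not marked by molecular identifiers are not separate molecules, so intervals and limits cover counting error only.

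Gene symbols come from RefSeq (GRCm38; 25275 of 27179 identifiers matched; the 1904 others held 0.222% to 0.351% of reads). Gene positions are from RefSeq, and exon lengths and exon overlaps are from GENCODE M21 on GRCm38. Overlapping genes and close copies can share reads. Levels per kb depend on the annotated length of exons.

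Each group is 1 library, so the read counts allow no test between groups. Reads were scaled by TMM (edgeR 4.0.16, R 4.3.3) over 16461 genes at 1 CPM in a library. Log2 ratios used a prior count of 2. Intervals are exact conditional binomial, at 95%. Ratios against 0 reads are bounds from a floor of 3 reads in that library. Further tools were scipy 1.17.1, pandas 2.3.3, matplotlib 3.10.9, numpy 2.4.6 and Python 3.11.15. The ratios were tested on simulated data.

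Members that reached 10 CPM were named with their levels, and members that passed with 5 CPM or more in the higher library were named in comparisons; some genes that meet these rules are counted but not reported here, and others are given by counts, or were named after their values were seen. From 5 partner lists (sodium and calcium channel partners, calcium release and store, calcium extrusion, other cation channels), up to 4 genes a list that passed with 10 CPM or more could be named. Of 25 other cation channels, 23 were found. The members and lists were chosen with earlier results of these data known, and the mature dendritic, skeletal muscle, melanocyte and mast cell lists after seeing these values. Alternatives were library totals, DESeq2 1.42.0 size factors, TMM without acinar genes, no filter or a 5 CPM filter, a prior count of 0.5, 2-fold and 8-fold rules, and other bowel libraries.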

Additional observations from a re-analysis of the deposited data

How the results depend on the processing

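No paired analysis was possible because each group is 1 library, and no replicate could be left out. Scaling with DESeq2 size factors, TMM without acinar genes and a prior count of 0.5 left every count of members within 1.5 times, and no named ratio changed sign under any alternative run. Library totals shifted the median of all genes by 0.46 in M1 neurospheres against bowel primary cells, 0.29 in M2 neurospheres and 0.17 in tdTomato-positive spheroid cells against the same cells, 0.24 between the spheroid sorts, 0.15 between adipose neurospheres and primary cells, -0.17 between M2 and M1, -0.12 between adipose and M2 neurospheres and 0.11 between M2 neurospheres and tdTomato-positive spheroid cells. They gave 2 higher members in M1 neurospheres against bowel primary cells, and there Trpv4 (-1.87), as well as Hcn3 in M2 neurospheres (-1.89) and Scn7a in tdTomato-positive spheroid cells (-1.98), no longer passed.

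Without the 1 CPM filter, lower members were 19 in the spheroid sort, 12 in adipose against M2 neurospheres, 23 in adipose culture and 14 in M2 against M1, and higher ones were 7 in adipose against bowel primary cells, 3 in M1 neurospheres against bowel primary cells and 5 in M2 neurospheres against tdTomato-positive spheroid cells. At 5 CPM, 4 were higher in the spheroid sort, 3 lower in adipose against M2 neurospheres, 7 lower in adipose culture, 2 lower and 0 higher in M2 against M1, and 0 higher in M2 neurospheres against tdTomato-positive spheroid cells. The 2-fold rule gave 7 higher in adipose against bowel primary cells, 4 higher and 27 lower in M1 neurospheres and 6 higher in tdTomato-positive spheroid cells against bowel primary cells, 2 higher and 17 lower in M2 against M1, and 2 higher and 7 lower in M2 neurospheres against tdTomato-positive spheroid cells. The 8-fold rule gave 0 higher in M2 neurospheres and in tdTomato-positive spheroid cells against bowel primary cells, 0 higher and 5 lower in M2 against M1 and 0 lower in M2 neurospheres against tdTomato-positive spheroid cells, and 20 of 96 named ratios no longer passed. Adipose neurospheres had 14 lower members against M1 neurospheres and 3 higher ones against tdTomato-positive spheroid cells. These counts follow from which genes are tested and where the rule is set; genes near 1 CPM rest on about 50 to 65 reads, and 1 library per group limits every ratio.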
